A study of Mus musculus with 160 samples.

Results

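The comparison is between hearts of R6/2 mice that were given CHDI-00390576 at 100 mg/kg and hearts of R6/2 mice that were given vehicle. The members were every heart library whose label carried R6/2 with that dose, 8 libraries, and every heart library whose label carried R6/2 with vehicle, 8 libraries, out of 160 libraries in the series. Each group held 4 males and 4 females on a C57BL/6J background, and both groups carried the transgene Tg(HDexon1)62Gpb. R6/2 mice express the first exon of the human huntingtin gene with an expanded CAG repeat throughout the body, so they model Huntington's disease in the heart as well as in the brain. By the title of the series the compound blocks class IIa histone deacetylases, and dosing was oral and b.i.d. in every group, vehicle included. Another 8 R6/2 hearts had 30 mg/kg and 8 wild-type hearts had vehicle; these 16 libraries were in the same fit and are given beside the comparison. The ages of the mice and the length of dosing were not given in the sources used here.

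Class IIa histone deacetylases (HDAC4, HDAC5, HDAC7 and HDAC9) bind MEF2 transcription factors and hold MEF2 target genes in check; in the heart, kinases that respond to load send them out of the nucleus, and the fetal gene program and hypertrophy follow. They have little deacetylase activity of their own on acetylated histones and act with the NCoR corepressors and HDAC3. A drug that blocks their catalytic pocket need not break their contact with MEF2.

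The 32 heart libraries held 33.7 to 38.6 M counts each, and mitochondrial transcripts took 24.8% to 33.1% of them. Levels are given as CPM (counts per M), each gene's share of its library's counts after scaling by edgeR's TMM factors. Ventricular markers such as Myl2, Myl3 and Myh6 were high in every library, with a summed level of 30970 to 37810 CPM in R6/2 vehicle and 31700 to 41400 CPM at 100 mg/kg. The predicted gene Gm12695, which has the smallest p between the genotypes, was at 1.77 to 2.48 CPM in the R6/2 vehicle hearts and at 0 to 0.186 CPM in wild type. In the 100 mg/kg group it was at 1.58 to 2.06 CPM in 7 hearts and at 0.58 CPM in the heart of male 4. That library stood apart on other genes too: Mef2a was at 135 CPM there and at 206 to 228 CPM in the other 7 hearts of its group, and several list values below are given without male 4 as well. The column header of male 4 carries the code D704, which no other library of the 2 compared groups carries. In the same fit, wild-type male 3 and male 3 at 30 mg/kg carry it too, with Mef2a at 227 and 202 CPM. Gm12695 was at 1.73 CPM in that heart at 30 mg/kg.

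At 100 mg/kg, the heart differed from vehicle in few genes. Of 15812 genes tested with edgeR's quasi-likelihood test and Benjamini-Hochberg adjustment, Manf rose and Ighd fell, which is 0.0126% of the genes tested. At an unadjusted p under 0.05 the count was 1267 genes (8.01%), of which 544 were higher (3.44%) and 723 lower (4.57%). The median log2 fold change over all genes was -0.01, and 47.9% of genes had a positive one. DESeq2 called 16 genes higher (0.101%) and 44 lower (0.278%). With FPKM values in limma-trend, no gene was called higher or lower at a pseudocount of 0.1, 1007 genes had an unadjusted p under 0.05, and only 20.4% of those were higher against 42.9% in edgeR. In the comparison of R6/2 vehicle with wild type, which shares the vehicle mice, 2280 genes differed (14.4%), 1101 of them higher in R6/2 (6.96%) and 1179 lower (7.46%).

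Manf, a small protein that resides in the endoplasmic reticulum and is secreted under stress there, was the gene with the smallest p. Its level ran from 15.5 to 23.3 CPM in R6/2 vehicle hearts, with a median of 18.4 CPM, and from 22.4 to 41.6 CPM at 100 mg/kg, with a median of 28.3 CPM. Every heart at 100 mg/kg was above the vehicle median, and the groups overlapped because vehicle female 4, at 23.3 CPM, lay above the lowest treated heart. The difference was 0.67 ± 0.11 on the log2 scale (SE; n = 8 and 8; edgeR adjusted p = 0.0084), a 1.59-fold rise. At 30 mg/kg Manf was at 16.9 to 22.7 CPM and differed from vehicle by 0.13 ± 0.11 (edgeR adjusted p = 1); 100 mg/kg against 30 mg/kg gave 0.54 ± 0.11, which did not pass the test (edgeR adjusted p = 0.257). Wild-type hearts had 17.0 to 29.0 CPM. The difference was 0.62 in males and 0.72 in females. With each of the 16 mice left out in turn it was past the test, at 0.59 to 0.71, and within the 2 sets of libraries whose column headers carry codes L1 to L32 or L33 and above the difference in mean log2 CPM was 0.65 and 0.63. When the 2 groups were fitted alone, its adjusted p was 0.084 by edgeR.

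Manf belongs to a group of genes of the unfolded protein response, in which a load of misfolded protein in the endoplasmic reticulum switches on chaperones through the factors XBP1, ATF6 and ATF4. Of 22 genes listed for that response and the linked amino acid response, 1 passed the test, 8 had an unadjusted p under 0.05 and were higher, and 0 were lower at that level, against 3.44% and 4.57% of all genes. The median of the list was 0.12, and DESeq2 called 3 of the 22 higher, which were Manf, Creld2 and Xbp1. A positive value was found in 14 of the 22 and a negative one in 8 (47.9% of all genes had a positive one). Creld2, another resident protein that is induced under such stress, ran from 6.95 to 9.25 CPM (median 8.08) in vehicle and from 8.83 to 12.8 CPM (median 10.5) at 100 mg/kg. All 8 treated hearts were above the vehicle median and the ranges overlapped narrowly; the difference was 0.40 ± 0.09 (edgeR adjusted p = 0.0789).

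**Figure D1:**
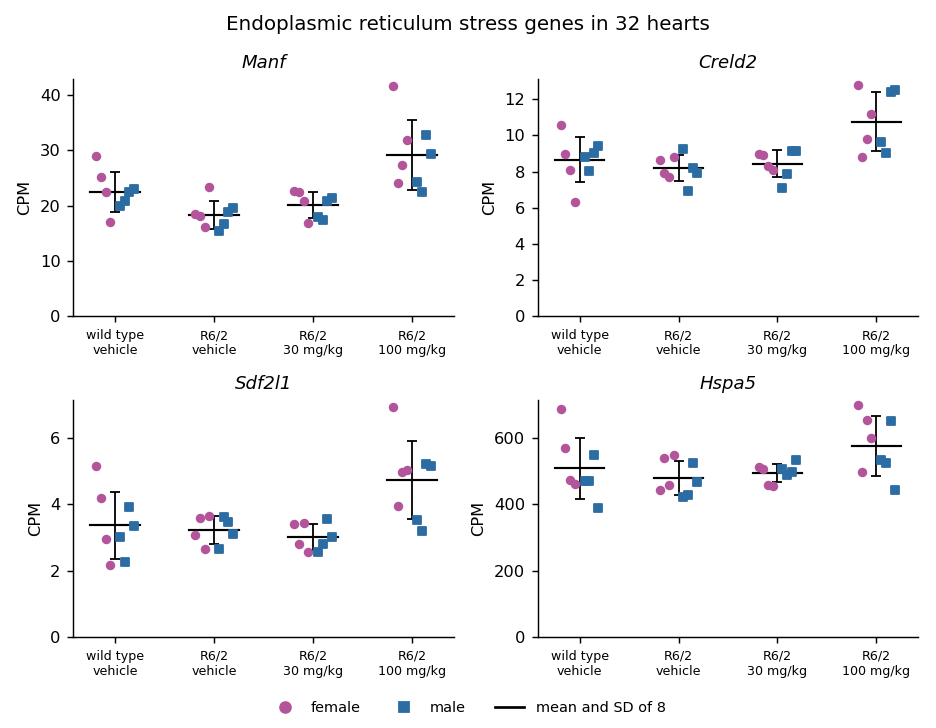
Level of 4 genes of the endoplasmic reticulum stress response in each of 32 hearts (CPM, linear axis from 0), with the mean and SD of 8 hearts a group. Manf ran from 22.4 to 41.6 CPM at 100 mg/kg and from 15.5 to 23.3 CPM in R6/2 vehicle.

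The other 6 genes of that group with an unadjusted p under 0.05 had smaller or less certain differences. Sdf2l1, part of a chaperone complex in the same compartment, was at 2.65 to 3.64 CPM in vehicle (median 3.29) and at 3.20 to 6.93 CPM at 100 mg/kg (median 4.99). Treated hearts were above the vehicle median in 7 of 8, with a difference of 0.55 ± 0.15 (edgeR adjusted p = 0.174). Xbp1, the factor itself, was at 45.6 to 56.2 CPM in vehicle and 51.4 to 67.5 CPM at 100 mg/kg (0.25 ± 0.07, edgeR adjusted p = 0.153). The main chaperone of the lumen, Hspa5, differed by 0.27 ± 0.09, the disulfide isomerases Pdia6 and Pdia4 by 0.17 ± 0.06 and 0.17 ± 0.08, and the lectin chaperone Calr by 0.15 ± 0.06. None of these 4 passed the test, with edgeR adjusted p from 0.355 to 0.621. Between 100 and 30 mg/kg, 9 of the 22 listed genes were higher at an unadjusted p under 0.05 (5.65% of all genes differed at that level in either direction).

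Some promoters of this group hold the letters of the endoplasmic reticulum stress element, the site at which ATF6 and NF-Y are known to bind. The element searched was CCAAT and CCACG with 9 bases between them, on both strands, together with its variant ERSE-II, which is ATTGG and CCACG with 1 base between them. In windows from 250 bases before to 50 after each start, 7 of 21 listed genes with a window held either form, against 0.181% of 27025 genes (RefSeq, GRCm38.p6). They were Hspa5, Hsp90b1, Herpud1, Dnajc3, Pdia6, Calr and Creld2. Genes were listed because they belong to this response, so the share carries no information on the treated hearts. Of these 7, Hsp90b1, Herpud1 and Dnajc3 were not among the 8 genes of the list with an unadjusted p under 0.05. The windows of Sdf2l1, Xbp1 and Pdia4 held neither form, and Manf had no window. For 3 genes, chosen because they were among the 8 and hold the element near the start, the 150 bases before the start follow, with the element in capitals. They lie at chr15:88819496-88819645 (Creld2), chr2:34771940-34772089 (Hspa5) and chr12:17266439-17266588 (Pdia6), all on the plus strand.
Creld2: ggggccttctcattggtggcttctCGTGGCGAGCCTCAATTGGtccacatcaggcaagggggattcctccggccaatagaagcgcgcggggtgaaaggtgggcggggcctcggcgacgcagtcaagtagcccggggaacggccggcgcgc
Hspa5: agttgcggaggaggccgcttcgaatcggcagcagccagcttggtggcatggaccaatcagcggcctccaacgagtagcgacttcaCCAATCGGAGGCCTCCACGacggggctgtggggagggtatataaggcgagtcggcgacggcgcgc
Pdia6: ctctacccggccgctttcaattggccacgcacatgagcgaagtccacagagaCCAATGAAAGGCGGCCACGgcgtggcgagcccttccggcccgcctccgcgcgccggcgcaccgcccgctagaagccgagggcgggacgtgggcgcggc
In Hspa5 and Pdia6 the element reads along the gene, and in Creld2 it reads on the opposite strand.

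Ighd, the constant region of the IgD heavy chain that naive B cells carry, was the gene that fell. It ran from 2.43 to 8.93 CPM in R6/2 vehicle hearts (median 4.73) and from 0.829 to 3.25 CPM at 100 mg/kg (median 1.75). No treated heart was above the vehicle median, and the ranges overlapped. The difference was -1.44 ± 0.26 (edgeR adjusted p = 0.0286). Wild-type hearts were at 1.205 to 3.85 CPM, and R6/2 vehicle hearts were 0.93 ± 0.25 higher than wild type (edgeR adjusted p = 0.0134), a comparison that uses the same vehicle mice. Hearts at 30 mg/kg were at 2.06 to 3.96 CPM, -0.69 ± 0.25 from vehicle (edgeR adjusted p = 1). The call on Ighd was lost without any 1 of 8 mice, which were vehicle males 1, 2 and 3, treated females 1 and 2, and treated males 1, 3 and 4, with edgeR adjusted p from 0.0624 to 0.123 and differences from -1.31 to -1.43. It was also lost when the 2 groups were fitted alone (-1.39, edgeR adjusted p = 0.165). By library code, the difference in mean log2 CPM of Ighd was -0.85 in libraries with codes L1 to L32 (3 treated and 3 vehicle hearts). In those with L33 and above it was -1.57 (4 treated and 5 vehicle hearts).

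The rest of the B cell genes lay on the same side. Of 16 listed B cell and plasma cell markers, 1 passed the test, 16 had a negative log2 fold change and 14 were lower at an unadjusted p under 0.05, against 4.57% of all genes; the median was -1.65. DESeq2 called 9 of the 16 lower. In R6/2 vehicle against wild type, with the same vehicle mice, 13 of the 16 were higher and 0 lower, against 6.96% and 7.46% of all genes. The median summed level of the 16 was 104.5 CPM in R6/2 vehicle and 40.55 CPM in wild type. It was 39.79 CPM at 30 mg/kg and 23.13 CPM at 100 mg/kg. Fewer B cells in the tissue and less of these RNAs per cell cannot be told apart in bulk hearts. Cd79b, a signalling subunit of the B cell receptor, ran from 1.36 to 9.51 CPM in vehicle (median 4.10) and from 0.615 to 3.09 CPM at 100 mg/kg (median 0.955). No treated heart reached the vehicle median, with a difference of -1.70 ± 0.33 (edgeR adjusted p = 0.0524). Its partner Cd79a differed by -1.67 ± 0.35, and the inhibitory coreceptor Cd22 by -1.76 ± 0.35 (edgeR adjusted p = 0.0577 and 0.0524). Pax5, the factor that fixes the B cell fate, differed by -1.94 ± 0.47 and the surface protein gene Ms4a1 by -1.60 ± 0.47 (edgeR adjusted p = 0.113 and 0.242). Pax5 was low, at 0.0511 to 1.15 CPM in vehicle and 0.0279 to 0.423 CPM at 100 mg/kg.

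Secreted antibody genes were far more uneven. Ighm, the IgM heavy chain, ran from 17.3 to 421 CPM in vehicle (median 49.0) and from 8.77 to 67.2 CPM at 100 mg/kg (median 10.9). The highest value was vehicle male 2; the other 7 vehicle hearts were at 17.3 to 59.0 CPM. Igkc and the joining chain gene Jchain reached 79.8 and 64.6 CPM in the same heart, while the highest of the other 7 were at 9.11 and 5.37 CPM. Ighm differed by -1.67 ± 0.57 (edgeR adjusted p = 0.357), and the summed level of the 16 markers was 36.4 to 650 CPM in vehicle and 18.7 to 112 CPM at 100 mg/kg. Without vehicle male 2, the median of the list was -1.29, with 11 of 16 lower at an unadjusted p under 0.05 and 0 past the test. Without male 2 at 100 mg/kg, whose heart had the highest level of most of these genes in its group, the median was -1.97 and 9 of the 16 passed.

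**Figure D2:**
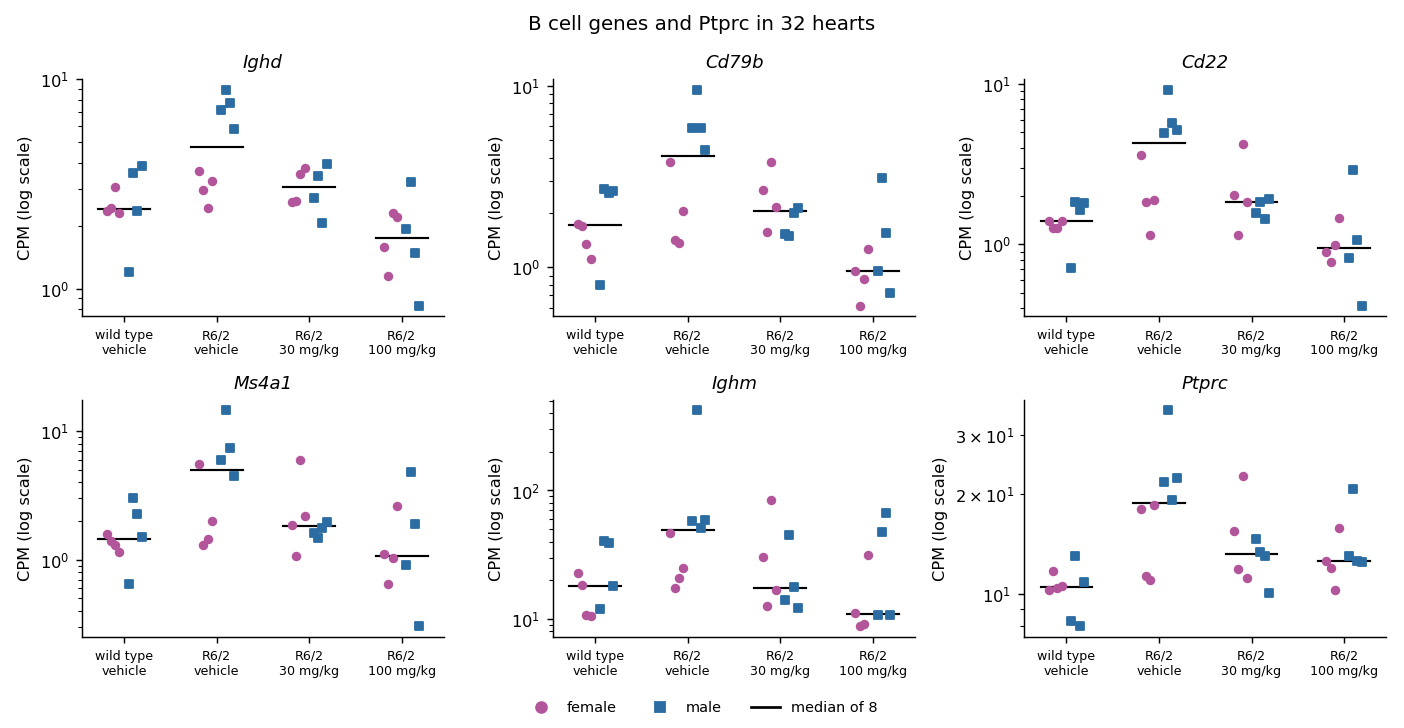
Level of 5 B cell genes and of Ptprc, the pan-leukocyte gene, in each of 32 hearts (CPM, log axis), with the median of 8 hearts a group as a bar. Ighd ran from 2.43 to 8.93 CPM in R6/2 vehicle and from 0.829 to 3.25 CPM at 100 mg/kg, and the vehicle males hold its 4 highest values.

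Ighd was at 5.80 to 8.93 CPM in the 4 vehicle males and at 2.43 to 3.67 CPM in the 4 vehicle females, which do not overlap. At 100 mg/kg males had 0.829 to 3.25 CPM and females 1.15 to 2.30 CPM. The difference was -1.98 ± 0.32 in males and -0.77 ± 0.32 in females, and the sexes differed by -1.21 ± 0.44, with an unadjusted p of 0.0108 in the edgeR interaction and an adjusted p of 0.963. Over the 16 markers the median was -2.02 in males and -0.99 in females. In males alone, 6 genes were lower at an adjusted p under 0.05 (0.0379%), and in females alone 1 was (0.00632%). Across all genes, 0 passed edgeR's test of the difference between the sexes, 577 had an unadjusted p under 0.05 and DESeq2 called 3; the smallest p was that of the cation-chloride cotransporter family member Slc12a8, at 0.77 ± 0.23 in males and -0.51 ± 0.23 in females.

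Some other leukocyte genes had negative values beside the B cell markers, and others did not. Cd52, a lymphocyte surface glycoprotein, was at 1.69 to 5.93 CPM in vehicle and 1.599 to 2.54 CPM at 100 mg/kg (-0.75 ± 0.18, edgeR adjusted p = 0.0931). H2-Ob, a class II antigen presentation gene that B cells use, differed by -1.16 ± 0.26 (edgeR adjusted p = 0.0789). Of 20 other listed antigen presentation genes of class I and II, 10 had a positive and 10 a negative value. At an unadjusted p under 0.05, 0 of those 20 were higher and 0 lower. Of 24 general leukocyte markers, 17 had a negative value and 7 a positive one. Of the 24, 0 passed edgeR's test (0 by DESeq2), and 5 were lower at an unadjusted p under 0.05. They included Ptprc at -0.51 ± 0.18, the myeloid integrin Itgax at -0.61 ± 0.21, Cd8a at -0.64 ± 0.28 and the cytotoxic granule gene Nkg7 at -0.72 ± 0.32. Cd8a was low, at 0.218 to 0.882 CPM in vehicle and 0.137 to 0.453 CPM at 100 mg/kg. So was Nkg7, at 0.134 to 0.909 CPM in vehicle and 0.219 to 0.679 CPM at 100 mg/kg. Over all genes 4.57% were lower at an unadjusted p under 0.05. Without vehicle male 2 the count was 2 and the median turned from -0.07 to 0.0047; the count was also 2 without vehicle male 1, or without female 3 or male 3 at 100 mg/kg. The summed level of the list was 296 to 647 CPM in vehicle (median 418.7) and 306 to 492.9 CPM at 100 mg/kg (median 415.7). Adipocyte markers, which mark fat cells, had a summed level of 259 to 1907 CPM in vehicle and 101 to 2530 CPM at 100 mg/kg. All 12 had a negative log2 fold change (52.1% of all genes did), with a median of -0.33 and 0 called. Their part in the lymphocyte values was not tested. Of the interferon genes, 29 of 30 were higher in R6/2 vehicle than in wild type, against 6.96% of all genes. At 100 mg/kg, against the same vehicle mice, 1 of 30 was higher and 0 lower at an unadjusted p under 0.05. Over all genes 3.44% were higher and 4.57% lower at that level. The median of the interferon genes, 0.04, had no stable sign. It was -0.03 without male 4 and -0.02 without female 2 at 100 mg/kg, with 0 higher in both. Irf7, a master factor of that response, was at 13.3 to 22.9 CPM in vehicle, 12.7 to 31.9 CPM at 100 mg/kg and 4.58 to 8.71 CPM in wild type.

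**Figure D3:**
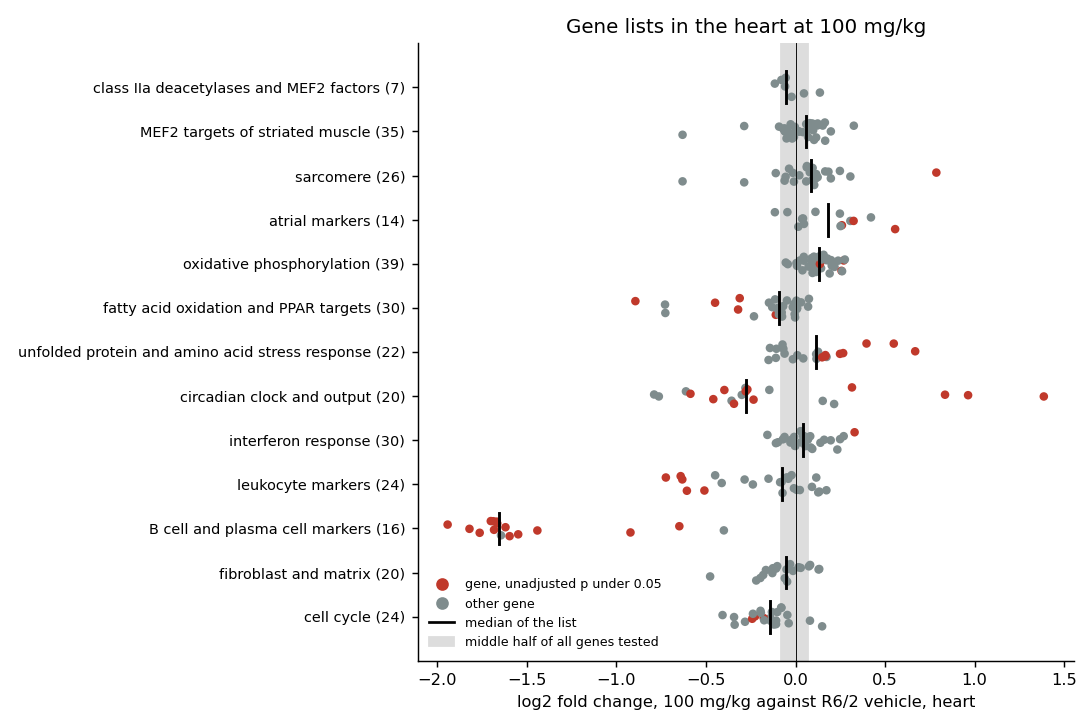
log2 fold change of each gene of 13 lists at 100 mg/kg against R6/2 vehicle (number of genes tested in brackets), with the median of each list as a bar and the middle range of all genes, -0.08 to 0.07, shaded. B cell markers have a median of -1.65 and clock genes spread to both sides.

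The genes of the drug's targets and of their MEF2 partners were given next. Among Hdac4, Hdac5, Hdac7, Hdac9, Mef2a, Mef2c and Mef2d, 0 of 7 passed edgeR's test, 0 had an unadjusted p under 0.05 and DESeq2 called 0; their log2 fold changes ran from -0.12 to 0.14. Hdac5 was at 55.9 to 78.5 CPM in vehicle and 58.9 to 77.9 CPM at 100 mg/kg. Hdac4 was at 20.9 to 26.6 CPM in vehicle and 20.4 to 26.1 CPM at 100 mg/kg, so both genes overlapped over nearly their whole ranges. Of 35 MEF2 targets of striated muscle, 0 passed, 0 had an unadjusted p under 0.05 and DESeq2 called 0, with a median of 0.06. In R6/2 vehicle against wild type, with the same vehicle mice, 17 of those 35 were lower and 0 higher, against 7.46% and 6.96% of all genes. Acta1, skeletal actin of the fetal heart program, was at 10.2 to 43.3 CPM in vehicle (median 16.4), 10.3 to 29.7 CPM at 100 mg/kg (median 15.5) and 22.5 to 183 CPM in wild type (median 108). Its values were -0.06 ± 0.31 at 100 mg/kg (edgeR adjusted p = 0.974) and -2.48 for R6/2 vehicle against wild type. The oxygen store Mb (0.09 ± 0.07), the creatine kinase Ckm (0.12 ± 0.08) and the main myosin Myh6 (0.10 ± 0.07) had unadjusted p of 0.196, 0.137 and 0.187 in edgeR.

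Among regulators and partners of the class IIa deacetylases, 4 of 24 were higher at an unadjusted p under 0.05, against 3.44% of all genes, with 0 past the test and a median of 0.00. They were Srf (0.16 ± 0.07), the serum response factor; Camta2 (0.09 ± 0.04), a coactivator that class IIa deacetylases are known to repress; Nkx2-5 (0.33 ± 0.14), a cardiac homeobox factor; and Rcan1 (0.28 ± 0.11), a calcineurin target. Rcan1 was at 40.0 to 63.1 CPM in vehicle and 43.7 to 71.8 CPM at 100 mg/kg. These 4 had edgeR adjusted p from 0.496 to 0.550.

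Nppa, the gene of atrial natriuretic peptide, ran from 555 to 1100 CPM in vehicle (median 810), from 919 to 1719 CPM at 100 mg/kg (median 1142) and from 858 to 2068 CPM in wild type (median 1317). All treated hearts were above the vehicle median while the ranges overlapped. The difference was 0.56 ± 0.17 (edgeR adjusted p = 0.256), and R6/2 vehicle against wild type gave -0.72 (edgeR adjusted p = 0.00456). Of 14 atrial markers, 12 had a positive value (47.9% of all genes did), with a median of 0.18. At an unadjusted p under 0.05, 3 were higher (3.44% of all genes), and 0 had an adjusted p under 0.05 (0 by DESeq2). Without male 3 at 100 mg/kg the median was 0.04 with 2 at an unadjusted p under 0.05, and on log2 FPKM it was 0.07 to 0.09. The 3 included Sln, a regulator of the calcium pump, at 0.32 ± 0.15 and Nr2f1 at 0.26 ± 0.10, while the atrial light chain Myl7 was at 0.31 ± 0.16. The summed level of the atrial markers was 2323 to 3503 CPM in vehicle and 2973 to 4508 CPM at 100 mg/kg, and whether hearts differed in how much atrium was sampled was not tested. Nppb, the other natriuretic peptide gene, overlapped widely (28.2 to 94.0 CPM in vehicle, 43.1 to 111 CPM at 100 mg/kg; 0.22 ± 0.22). Ankrd1, a stress-inducible titin-binding protein of the sarcomere, was at 357 to 883 CPM in vehicle (median 456) and 277 to 467 CPM at 100 mg/kg (median 346). Treated hearts were below the vehicle median in all but 1, and the difference was -0.49 ± 0.15 (edgeR adjusted p = 0.274).

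**Figure D4:**
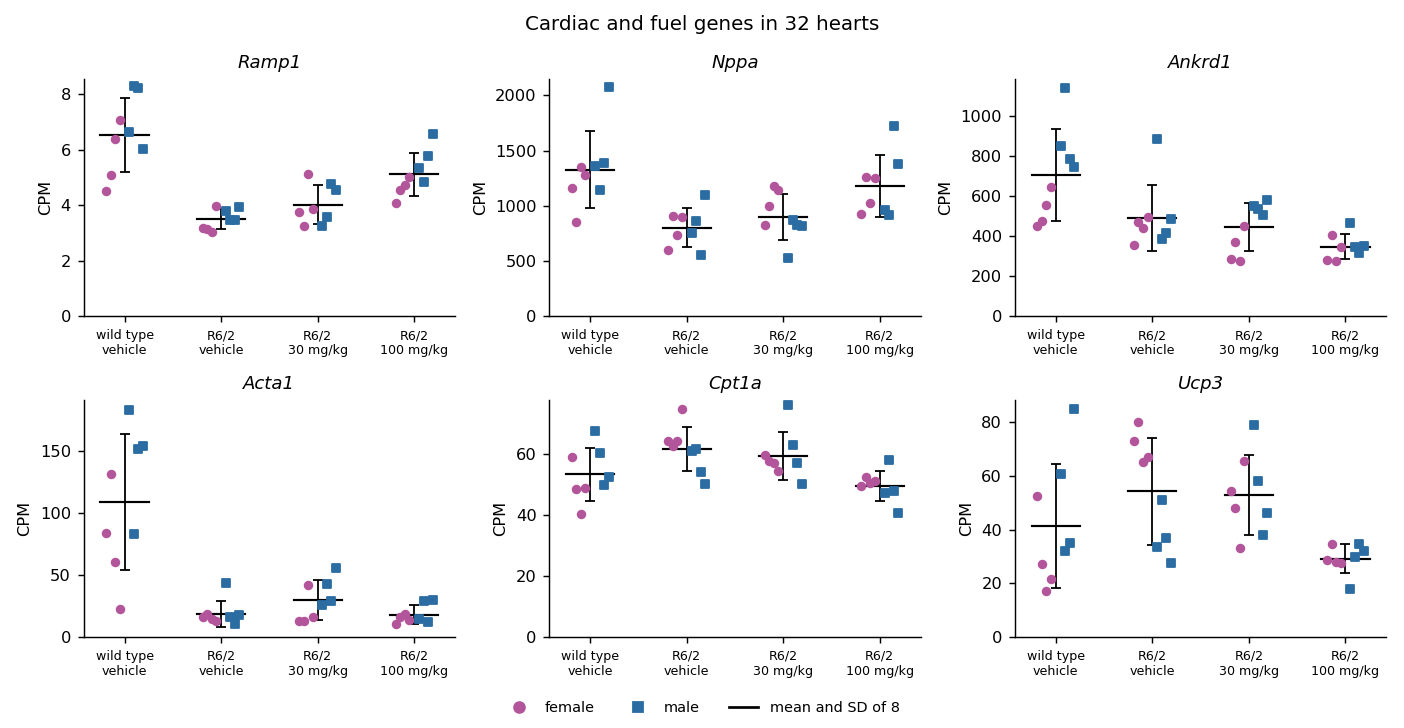
Level of 6 genes of heart muscle and fuel use in each of 32 hearts (CPM, linear axis from 0), with the mean and SD of 8 hearts a group. Ramp1 ran from 4.07 to 6.55 CPM at 100 mg/kg, above all 8 R6/2 vehicle hearts, which ran from 3.04 to 3.97 CPM.

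Some genes separated the groups fully. In 4 genes every treated heart was above every vehicle heart (0.0253% of genes tested) and in 5 every treated heart was below (0.0316%). Ramp1, the accessory subunit of the receptors for calcitonin gene-related peptide, was at 3.04 to 3.97 CPM in vehicle (median 3.47) and 4.07 to 6.55 CPM at 100 mg/kg (median 4.93). Its difference was 0.54 ± 0.11 (edgeR adjusted p = 0.0524). In the fit of the 2 groups alone it passed, with an edgeR adjusted p of 0.0417. Wild-type hearts were at 4.51 to 8.28 CPM, and R6/2 vehicle against wild type gave -0.89 (edgeR adjusted p = 5.35e-06), with shared vehicle mice. The 3 others above were Otub2, a deubiquitinating enzyme (0.32 ± 0.07), Pcyox1l (0.45 ± 0.16) and Zcchc17 (0.11 ± 0.04). The 5 below were Sept10, a septin (-0.21 ± 0.05), Fbxl20, a ubiquitin ligase subunit (-0.14 ± 0.04), Hectd3, another ligase (-0.09 ± 0.03), Ctc1, of the telomere-capping CST complex (-0.11 ± 0.05), and the predicted gene A930004J17Rik.

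Other genes at the top of the ranking had differences just short of the threshold. Slc39a8, a transporter of zinc and manganese, was at 4.65 to 8.51 CPM in vehicle and 7.73 to 11.5 CPM at 100 mg/kg (0.52 ± 0.11, edgeR adjusted p = 0.0524). Cngb3, a cyclic nucleotide-gated channel subunit known from cone cells, was at 1.66 to 4.04 CPM in vehicle and 3.21 to 5.79 CPM at 100 mg/kg (0.84 ± 0.19, edgeR adjusted p = 0.0789). Every treated heart was above the vehicle median in both genes. Card19 (0.36 ± 0.08), the Golgi transport gene Golt1b (0.17 ± 0.04) and the nucleoside transporter Slc29a1 (0.16 ± 0.04) had edgeR adjusted p from 0.0807 to 0.119. On the lower side, Chrna2, a nicotinic receptor subunit, was at 0.960 to 3.43 CPM in vehicle and 0.525 to 1.19 CPM at 100 mg/kg (-1.22 ± 0.26, edgeR adjusted p = 0.0577), and passed in the fit of the 2 groups alone (edgeR adjusted p = 0.0279). Pdcd4, an inhibitor of translation, differed by -0.28 ± 0.07 (edgeR adjusted p = 0.0931).

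Clock genes spread in both directions. In the daily clock, the activators Arntl, Npas2 and Clock drive the repressors of the Per, Cry, Nr1d and Bhlhe families. Of 20 genes listed, 0 passed edgeR's test, 4 were higher and 7 lower at an unadjusted p under 0.05, against 3.44% and 4.57% of all genes, and the median was -0.28. DESeq2 called 1 higher, Nfil3. Without male 4 at 100 mg/kg 6 were higher and 12 lower, with a median of -0.35, and without male 2 at 100 mg/kg 4 were higher and 11 lower. Arntl ran from 2.91 to 9.26 CPM in vehicle (median 4.27) and from 2.13 to 25.1 CPM at 100 mg/kg (median 15.3). In the treated group 6 hearts, at 14 to 25.1 CPM, were above every vehicle heart, and males 2 and 4, at 2.88 and 2.13 CPM, were below every one; wild-type hearts ran from 1.68 to 23.9 CPM. The difference was 1.39 ± 0.48 (edgeR adjusted p = 0.373). Npas2 gave 0.96 ± 0.31, the repressor of D-box genes Nfil3 0.83 ± 0.21, and Cry1 0.32 ± 0.09. The 7 on the lower side were Bhlhe41 (-0.59 ± 0.16), Tef (-0.46 ± 0.22), Nr1d2 (-0.40 ± 0.14), Usp2 (-0.34 ± 0.13), Nr1d1 (-0.28 ± 0.12), Cry2 (-0.27 ± 0.11) and Bhlhe40 (-0.23 ± 0.09). In females 5 were higher and 12 lower at an unadjusted p under 0.05, and in males 0 and 0. Over all genes, 4.91% had such a p in females and 7.18% in males, in either direction. In the test of the difference between sexes 3 of 20 had an unadjusted p under 0.05 (3.65% of all genes), none of them past it. The hour at which hearts were taken was not given in the sources used here, and its part in these values was not tested.

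**Figure D5:**
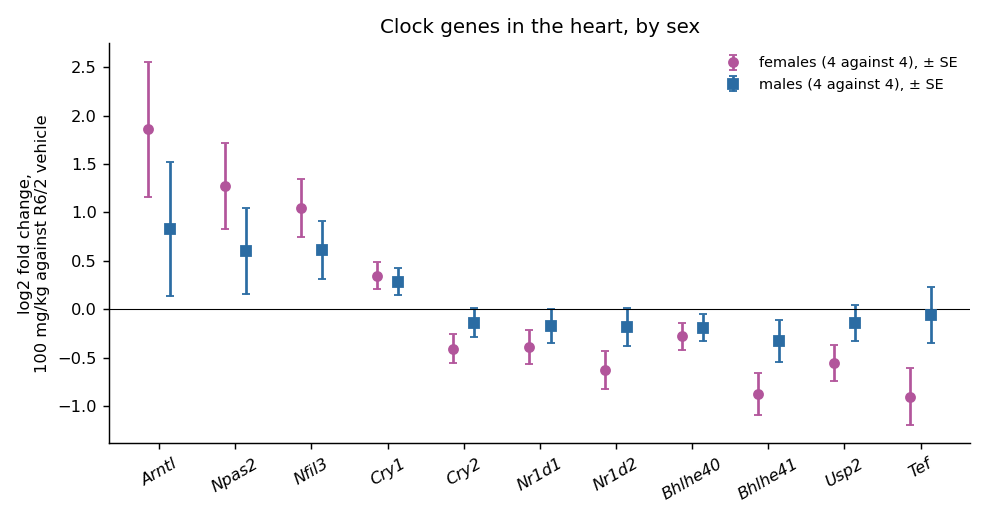
log2 fold change at 100 mg/kg against R6/2 vehicle for the 11 clock genes with an unadjusted p under 0.05, in females and in males (4 hearts against 4; error bars are SE). The female values lie farther from 0 than the male values in all 11 genes, for example 1.86 against 0.83 for Arntl.

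Over both sexes, most genes of fat oxidation had negative values and most of the respiratory chain positive ones, with 0 called in either list by edgeR or DESeq2. Of 30 genes of fatty acid oxidation and PPAR targets, 24 had a negative value (52.1% of all genes did), with a median of -0.09. At an unadjusted p under 0.05, 5 were lower (4.57% of all genes). The count was 3 without male 4 at 100 mg/kg or without vehicle female 1, 2 or 3, where medians were -0.05 to -0.08. Cpt1a, which brings fatty acids into mitochondria, was at 50.3 to 74.8 CPM in vehicle (median 62.2) and 40.8 to 58.1 CPM at 100 mg/kg (median 49.9). No treated heart was above the vehicle median (-0.31 ± 0.09, edgeR adjusted p = 0.242). Ucp3, a mitochondrial carrier that PPAR factors induce, was at 27.4 to 80.1 CPM in vehicle and 17.7 to 34.8 CPM at 100 mg/kg (-0.89 ± 0.27, edgeR adjusted p = 0.252). Its vehicle females, at 65.2 to 80.1 CPM, lay above its vehicle males, at 27.4 to 50.9 CPM. At 100 mg/kg females were at 27.6 to 34.6 CPM and males at 17.7 to 34.8 CPM. Acot2, a thioesterase, was at -0.32 ± 0.11. In females 10 of the 30 were lower at an unadjusted p under 0.05, with a median of -0.15. In males 0 of the 30 were, with a median of -0.02. Over all genes, 4.91% had such a p in females and 7.18% in males, in either direction. The test of the difference between sexes gave 3 of the 30 an unadjusted p under 0.05 (3.65% of all genes). Of 39 genes of oxidative phosphorylation, 37 had a positive value (47.9% of all genes did), with a median of 0.13. At an unadjusted p under 0.05, 3 were higher (3.44% of all genes). Without male 4 at 100 mg/kg the median was 0.04 and 0 of the 39 had an unadjusted p under 0.05. Over the 16 mice left out in turn that count ran from 0 to 18, the latter without male 2 at 100 mg/kg. In males 13 of the 39 were higher at an unadjusted p under 0.05, with a median of 0.23. In females 0 of the 39 were, with a median of 0.03. The test of the difference between sexes gave 0 of the 39 an unadjusted p under 0.05.

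Of 24 cell cycle genes, 22 had a negative value (52.1% of all genes did), 3 were lower at an unadjusted p under 0.05 (4.57% of all genes) and 0 were called. The median was -0.14, and without female 2 at 100 mg/kg it was -0.30 with 7 lower. The 3 were the replication helicase genes Mcm3 (-0.23 ± 0.08), Mcm4 (-0.18 ± 0.07) and Mcm2 (-0.24 ± 0.10). Of 23 genes of the NRF2, glutathione and xenobiotic response, 0 were called and the median was -0.02. At an unadjusted p under 0.05, 1 was higher and 2 lower, against 3.44% and 4.57% of all genes. The 2 were Nqo1 and Gclm, of quinone and glutathione metabolism, at -0.30 ± 0.09 and -0.32 ± 0.10 (edgeR adjusted p = 0.277 and 0.311). Cyp1a1, a xenobiotic oxidase, was at 0.128 to 1.86 CPM in vehicle and 0.0529 to 9.63 CPM at 100 mg/kg (2.19 ± 0.73, edgeR adjusted p = 0.343), with the treated group holding both its lowest and its highest values. Of 15 genes for haem and iron, 0 were called. At an unadjusted p under 0.05, 3 were higher and 1 lower, against 3.44% and 4.57% of all genes. The transferrin receptor Tfrc was at 0.68 ± 0.27, the first enzyme of haem synthesis Alas1 at 0.31 ± 0.12, and the iron exporter Slc40a1 at -0.41 ± 0.13. Fibroblast and matrix genes had a median of -0.06 with 0 of 20 at an unadjusted p under 0.05, and endothelial markers 0.03 with 0 of 18.

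At 30 mg/kg against vehicle, 0 genes passed edgeR's test, 612 had an unadjusted p under 0.05 (3.87%) and DESeq2 called 0. Between 100 and 30 mg/kg, 0 passed, 893 had an unadjusted p under 0.05 (5.65%) and DESeq2 called 3. The 3 genes with the smallest p at 30 mg/kg were Cnr2 (-0.86), a cannabinoid receptor of immune cells, Tnfrsf13c (-1.37), the BAFF receptor of B cells, and Ccr7 (-1.10), a lymphocyte homing receptor. At 100 mg/kg the same 3 were at -0.53 ± 0.18, -1.60 ± 0.32 and -1.06 ± 0.26 against the same vehicle mice. Of the 16 B cell markers, 10 were lower at an unadjusted p under 0.05 at 30 mg/kg (2.59% of all genes were), with a median of -0.89. The direct comparison of 100 with 30 mg/kg gave a median of -0.60 with 7 lower at that level, where 456 of 15812 genes were lower.

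The other tissues of the same mice were fitted each alone. The edgeR calls at 100 mg/kg against vehicle numbered 308 in liver (2.06%), 1 in cortex (0.00571%), and 0 in striatum and in tibialis muscle (0% each), where 680 and 2164 genes had an unadjusted p under 0.05. Manf was at 0.03 ± 0.07 in cortex, -0.02 ± 0.13 in striatum, 0.29 ± 0.10 in tibialis and 0.33 ± 0.24 in liver, against 0.67 ± 0.11 in heart. Ighd was at -0.54 ± 0.29 in cortex, -0.30 ± 0.25 in striatum, -0.71 ± 0.27 in tibialis and 0.53 ± 0.32 in liver. None of these 8 values passed its tissue's edgeR test, with adjusted p from 0.304 to 0.999. Arntl was at 0.70 ± 0.26 in tibialis and 1.77 ± 0.63 in liver, and at 0.02 ± 0.06 and 0.12 ± 0.09 in cortex and striatum. The median of the 20 clock genes was -0.32 in tibialis and -0.52 in liver, against -0.28 in heart, and that of the B cell markers was -0.55 in tibialis over 10 tested genes and 0.16 in liver over 14. The differences between tissues were not tested.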

How the data were processed

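RNA of 5 tissues from 32 mice was sequenced, per the labels; the read-out used here is heart, 32 libraries. The submitters' processing notes name CASAVA 1.8.2 and state no role for it. Not given in the sources used here: aligner, quantifier, genome build. Expected counts per gene were deposited by the authors and, by their values, are not normalized; 69.2% are whole numbers in heart. The authors also deposited FPKM values, which are relative to gene length and library depth. Expected counts were rounded, genes were kept by filterByExpr, and edgeR 4.0.16 (R 4.3.3) with TMM scaling fitted group and sex over the 32 hearts, with a quasi-likelihood test and Benjamini-Hochberg adjustment at 0.05. Strand of counting is unknown, so overlapping genes may share reads. Symbols came from GENCODE M21 and promoters from RefSeq. Alternatives were DESeq2 1.42.0, limma 3.58.1 on log2(FPKM + 0.1) or log2(FPKM + 1), other scaling and filters, the 2 groups fitted alone, and leaving out each mouse. The edgeR step was tested on simulated data. Of the genes named, 10 a direction were those with the smallest p at a mean log2 CPM of at least 1, passing over predicted genes; up to 4 came from each list; others had no overlap or passed in another fit, and targets and cardiac genes were always open to naming. Further members of the unfolded protein, B cell, clock and fat oxidation lists were named after their values were seen. The comparison and the 42 gene lists were chosen with earlier results of these data known. The 8 mice a group are separate animals. A few genes that the naming rule picks are not reported here.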

Additional observations from a re-analysis of the deposited data

Results flagged for a closer look

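In 230 groups of 8 hearts tested, a highest or lowest value stood apart 29 times. The genes were picked for this report and many of them vary together across hearts, so no rate by chance is given. The heart of male 4 at 100 mg/kg had 8 of the 29. Its Card19 was at 35.2 CPM (19.5 to 23.9 in the other 7), Nr2f1 at 4.56 CPM, Hdac7 at 59.4 CPM, Mef2a at 135 CPM and Mef2c at 42.2 CPM. Gm12695, the gene that marks R6/2 hearts, was at 0.58 CPM there, Sept10 at 11 CPM and Slc40a1 at 11.5 CPM.

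Vehicle male 2 had 6, all of immune genes: Ighm at 421 CPM, Igkc at 79.8 CPM, Jchain at 64.6 CPM, Ms4a1 at 14.5 CPM, Ptprc at 35.7 CPM, and a summed level of B cell markers of 650.2 CPM against 36.41 to 121.3 CPM in the other 7 hearts. Male 2 at 100 mg/kg had 5, also of B cell genes: Cd79b at 3.09 CPM, Cd22 at 2.91 CPM, Cd79a at 3.22 CPM, H2-Ob at 3.14 CPM and Pax5 at 0.423 CPM. Vehicle male 1 was highest for Ankrd1 at 883 CPM, Acta1 at 43.3 CPM and Myh7 at 691 CPM.

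Single values came from other hearts. Male 1 at 100 mg/kg was lowest for Ucp3 at 17.7 CPM and had a summed level of smooth muscle and pericyte markers of 2690 CPM. Vehicle female 3 was highest for Gclm at 29.2 CPM, and female 1 at 100 mg/kg for Nkg7 at 0.679 CPM. The summed level of red blood cell markers was 4759 CPM in female 2 at 100 mg/kg, that of adipocyte markers 2530 CPM in male 3 at 100 mg/kg, and that of liver markers 8.426 CPM in vehicle female 4.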

How the results depend on the processing

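The counts of genes called at 100 mg/kg moved with the processing. They were 3 higher and 5 lower with RLE scaling, 16 and 44 with DESeq2, 0 and 0 on log2 FPKM with a pseudocount of 0.1 or with no filter, 0 and 1 with a pseudocount of 1, and 2 and 1 with the library code as a term, which was chosen after seeing the data. DESeq2 gave 3 genes between 100 and 30 mg/kg and 3 between the sexes. Leaving out each mouse in turn gave 1 to 5 higher and 0 to 33 lower, with 33 without male 2 at 100 mg/kg, 18, 14 and 8 without vehicle females 3, 2 and 4, 2 without vehicle male 4, and 0 without vehicle males 1, 2 or 3 or treated females 1 and 2 and males 1, 3 and 4. With the replicate block the counts were 3 and 8. Nothing in the labels says that the replicate numbers pair the mice across groups. Same-numbered mice correlated at -0.11 to 0.31, 4 of 8 over 0.1, and 3 of 8 best with their own number. With so few mice a sex these values cannot settle whether the numbers pair them in heart. By the mouse codes in the column headers, a number is not kept with a mouse across tissues. For example, R6/2 vehicle male 1 in heart is R6/2 vehicle male 4 in cortex. Without male 4 at 100 mg/kg the sign turned for 4 uncalled genes; over the 16 mice left out in turn, log2 fold changes ran from -0.0062 to 0.080 for Hdac7, -0.133 to 0.033 for Hdac9, -0.050 to 0.048 for Mef2a and -0.059 to 0.020 for Htt. Acta1 ran from -0.173 to 0.148 and was positive without vehicle female 2 (0.011), vehicle male 1 (0.148), or treated male 1 (0.022) or 3 (0.041). The sign also turned for Slc12a8 on unfiltered FPKM (-0.016). The cause was not tested.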
